A study of Mus musculus with 20 samples.

Results

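Periodontitis is an inflammation of the tissue that holds the teeth, and the offspring of dams with and without it were compared here at 7 weeks of age, after weaning. All 5 libraries titled as 7-week offspring of dams with periodontitis were set against all 5 of 7-week offspring of control dams, which made 10 of the 20 libraries of the series. The other 10 libraries came from 2-week pups of the same kinds of dam, and they entered the fit so that all 4 groups shared 1 estimate of the spread. PolyA RNA of small intestinal tissue was sequenced in bulk, and the stated aim was to compare gene expression between the offspring, in a study titled for oral bacteria that pass from mother to infant gut. Neither strain, sex, litter, intestinal segment, nor hour and feeding state at collection is given in the labels. The labels do not say whether the 5 libraries of a group came from separate animals or litters. Since the disease was that of the dam, p-values here measure only the spread between libraries, those of 2 weeks included.

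The small intestine is a sheet of absorptive enterocytes with goblet, Paneth, tuft and hormone cells among them, over a layer of immune, stromal, muscle and nerve cells. B cells gather largely in follicles such as Peyer's patches, which lie at intervals along the gut, whereas plasma cells that make IgA are spread through the lamina propria. Fat cells belong to the mesentery that carries vessels to the gut wall. Enterocytes take up fat and export it as chylomicrons, and their lipid and sugar genes follow feeding, the daily clock and glucocorticoids. In bulk tissue, fewer cells of a type and less RNA per cell cannot be told apart.

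Total counts were 33.9 ± 3.22 M (mega counts) in the control group (SD, n = 5; 28.5 to 37.1) and 31.2 ± 6.73 M in the periodontitis group (SD, n = 5; 21.7 to 38.3). Enterocyte markers were high in every library: Apoa4, the apolipoprotein of chylomicrons, was the top gene in all 10 and took 3.376 to 5.611% of counts in controls. One periodontitis library stood apart from the others of its group. In periodontitis library 5 Apoa4 took 2.119% of counts against at least 4.648% in libraries 1 to 4, and its mean correlation with the other libraries of its group was 0.9491 against 0.9636 to 0.9739 for theirs. Counts of calls are given with and without it, and so are the list medians and gene values that it moves most. Markers of the far end of the small intestine were near 0 in all 10 libraries: Fabp6, the ileal bile acid binding protein, had 21 counts over the control group, 18 of them in library 5, and 0 over the periodontitis group, and Fgf15 had 0 in both.

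Of 17464 genes tested, 2 passed an adjusted p of 0.05 in edgeR's quasi-likelihood test, or 0.0115%, and both were higher in offspring of dams with periodontitis. They were Scd1, a desaturase of fatty acids, and Klf15, a transcription factor of the response to fasting and glucocorticoids. At an unadjusted p under 0.05 there were 582 genes, 291 higher (1.67%) and 291 lower (1.67%), and the median log2 fold change of all genes was 0.02. The 582 were 3.33% of all genes, a smaller share than the 0.05 that chance alone would give. All 5 periodontitis libraries lay above all 5 control libraries for 43 genes (0.246%), and below them for 49 (0.281%). Neither share was larger than the one that randomly dealt group labels would give, so a lack of overlap is not evidence by itself. DESeq2 called 25 of 17313 genes (0.144%), 12 higher and 13 lower, with Scd1 and Klf15 among them. Without periodontitis library 5, edgeR called 15 of 17762 genes (0.0844%), 11 of them higher. Leaving out any of the 5 control libraries ended both calls, with adjusted p of 0.0583 to 0.131 in edgeR, and so did a fit to the 10 libraries of 7 weeks alone (edgeR adjusted p = 0.713 for each). A log2 fold change below is periodontitis minus control from edgeR, with a standard error (SE) worked back from the test. As the fit shares the spread, the SE and p of a gene also take in its spread among the 2-week libraries. CPM are counts per M counts of a library, scaled by the trimmed mean of M values (TMM).

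**Figure D1:**
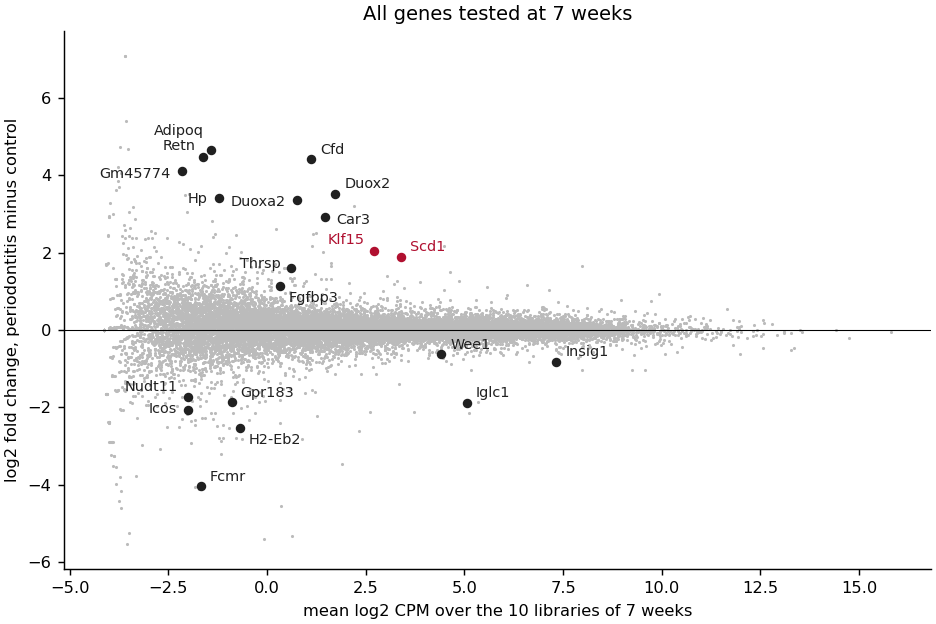
Log2 fold change, periodontitis minus control, against mean log2 CPM over the 10 libraries of 7 weeks, 1 point per gene tested (17464). The 20 genes of smallest p are named, with the 2 that passed an adjusted p of 0.05 in red; the black ones did not pass.

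Klf15 (GRCm38 chr6:90462576-90475238, plus strand) was higher in every periodontitis library. In control libraries 1 to 5 its level was 2.62, 4.02, 2.75, 3.27 and 4.43 CPM, and in periodontitis libraries 1 to 5 it was 9.4, 7.21, 26.8, 9.78 and 17.1 CPM. The groups did not overlap, and periodontitis library 3 was the highest. The log2 fold change was 2.05 ± 0.31 (SE; 4.13-fold; edgeR adjusted p = 0.0188). Per1 (chr11:69095217-69109960, plus strand), a repressor of the clock that glucocorticoids also induce, showed the same order of groups. Its control libraries held 4.34, 7.45, 6.53, 8.29 and 5.8 CPM and its periodontitis libraries 14.4, 9.31, 24.7, 13.1 and 16.5 CPM. Here too the lowest periodontitis library was above the highest control library and library 3 was the highest, but the gene did not pass (1.27 ± 0.32; edgeR unadjusted p = 0.000771, adjusted p = 0.396).

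The 250 bases before the start of Klf15 and Per1 are shown because these 2 were the members of the glucocorticoid and fasting list whose groups did not overlap. Sequences are from RefSeq (GRCm38.p6), 5′ to 3′ on the plus strand, and capitals mark CACGTG, the E-box that clock factors and other basic helix-loop-helix factors can bind. The Klf15 stretch is chr6:90462326-90462575, and the Per1 stretch, the first of 2 starts in the table, is chr11:69098699-69098948.
Klf15: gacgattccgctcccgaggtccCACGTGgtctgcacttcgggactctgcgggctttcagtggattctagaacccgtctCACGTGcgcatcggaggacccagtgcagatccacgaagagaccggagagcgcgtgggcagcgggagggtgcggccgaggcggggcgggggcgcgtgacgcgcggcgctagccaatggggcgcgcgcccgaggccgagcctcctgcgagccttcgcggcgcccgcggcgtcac
Per1: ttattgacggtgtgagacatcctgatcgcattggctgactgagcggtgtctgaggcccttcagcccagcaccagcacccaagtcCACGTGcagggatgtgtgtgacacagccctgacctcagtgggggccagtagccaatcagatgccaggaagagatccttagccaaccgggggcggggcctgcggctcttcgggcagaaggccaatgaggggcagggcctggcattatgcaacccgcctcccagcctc
Klf15 held CACGTG 2 times, at 228 and 172 bases before its start, and Per1 held it 1 time, at 166 bases. The letters occur in 6.02% of the 32851 promoters of that length. They were not particular to these 2 genes. Of the glucocorticoid and fasting list 19 members had a promoter in the table. Of these 6 held the letters at 1 or more of their starts, Klf15 and Per1 included. Another was Fkbp5, which was higher at an unadjusted p under 0.05 in edgeR. Sgk1 and Dusp1 also held them, with log2 fold changes of -0.24 and -0.47. So did 5 of 17 clock genes, Per1 among them. The second start of Per1 (chr11:69099902-69100151) held none. AGAACA, one arm of the palindrome that the glucocorticoid receptor binds, read on both strands, was found in neither gene's stretches and in 16.1% of all promoters. TTATGNAA, the D-box, read on both strands, occurred 1 time in the first Per1 stretch and in 3.07% of all promoters. CACGTG reads the same on both strands, and none of these matches is a measured binding site.

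Klf15 and Per1 belonged to a list of 21 tested genes of the glucocorticoid and fasting response, of which 1 was called, 7 were higher and 0 lower at an unadjusted p under 0.05, and the median log2 fold change was 0.25. The other 5 were Mt2 and Mt1, which bind zinc and copper, Fkbp5, a co-chaperone of the glucocorticoid receptor, the transcription factor Zbtb16 and Hif3a. Mt2 was at 18.1, 12.4, 9.64, 16.9 and 17.4 CPM in controls and at 2.75, 15.6, 102, 78.5 and 135 CPM in periodontitis libraries. Libraries 3, 4 and 5 were thus far above all controls, while library 1 was below all of them (2.16 ± 0.65; edgeR adjusted p = 0.791). Mt1 followed that order, at 61.4 to 88.4 CPM in controls and 30.8, 86.4, 230, 254 and 218 CPM in periodontitis libraries (1.16 ± 0.44; edgeR adjusted p = 1). Fkbp5 was at 3.58 to 10.7 CPM in controls and at 22.7, 5.93, 13.3, 5.05 and 34.9 CPM in periodontitis libraries. Library 5 was the highest for both Fkbp5 and Mt2 and library 3 was above all controls for both, whereas library 1 was above all controls for Fkbp5 alone and library 4 for the metallothioneins alone. Tsc22d3, Sgk1 and Dusp1, further targets of the glucocorticoid receptor, had log2 fold changes of -0.12, -0.24 and -0.47, with unadjusted edgeR p of 0.64, 0.336 and 0.177. Pdk4 and Angptl4, which rise in fasting, gave 0.22 ± 0.27 and -0.14 ± 0.28.

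Among 20 tested genes of the circadian clock, 0 were called, 1 was higher (Per1) and 3 were lower at an unadjusted p under 0.05, with a median of -0.03, and of 0.08 without periodontitis library 5. Per2 and Cry1 were among the 3. Per2, a partner of Per1, was at 12.6, 22.1, 17.2, 15 and 16.2 CPM in controls and at 16.9, 13.4, 6.31, 5.98 and 5.15 CPM in periodontitis libraries. Periodontitis libraries 3, 4 and 5 lay below all controls and libraries 1 and 2 within their range (-0.80 ± 0.29; edgeR adjusted p = 1). Cry1, which represses with the Per proteins, was at 38.9 to 61.4 CPM in controls and 15.1 to 43.6 CPM in periodontitis libraries (-0.53 ± 0.20). Dbp, an output gene of the clock, was at 1.52 to 7.33 CPM in controls and at 9.55, 13.8, 2.74, 2.24 and 1.94 CPM in periodontitis libraries, with libraries 1 and 2 above all controls. Wee1, a kinase that holds cells before mitosis and that the clock also drives, was lower in every periodontitis library. Its levels were 20.9, 33.9, 26.5, 26 and 25.8 CPM in controls and 17.5, 19.5, 18.5, 16.1 and 14.7 CPM in periodontitis libraries (-0.62 ± 0.13; edgeR adjusted p = 0.198; DESeq2 adjusted p = 0.00413). The part of the hour of collection in these values was not tested.

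**Figure D2:**
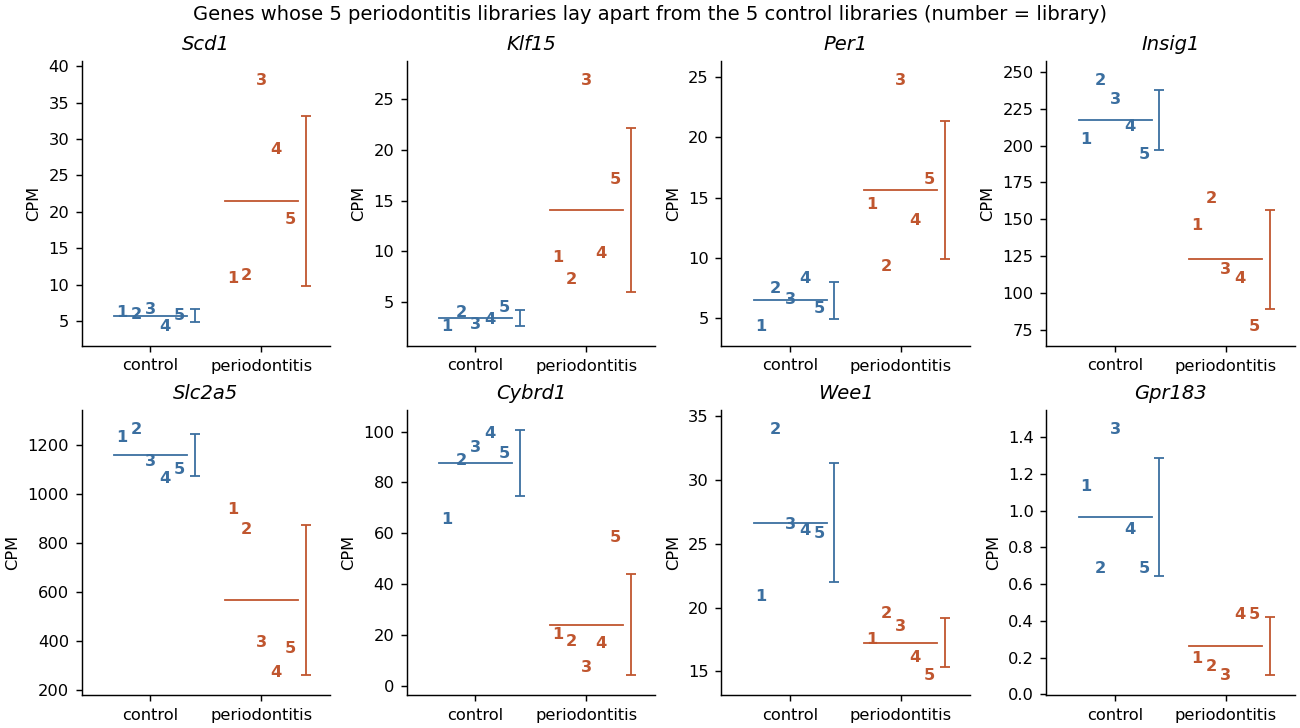
CPM of 8 genes in each library of 7 weeks. Numbers are libraries 1 to 5 of each group, lines are group means and error bars are 1 SD (n = 5). For each gene the lowest library of one group is above the highest of the other; only Scd1 and Klf15 passed the adjusted p.

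Scd1 (chr19:44394455-44407879, minus strand) encodes stearoyl-CoA desaturase, which puts a double bond into saturated fatty acids. Control libraries held 6.14, 5.98, 6.56, 4.32 and 5.84 CPM, and periodontitis libraries 10.8, 11.3, 38, 28.5 and 18.9 CPM. No library of one group reached the other, and libraries 3 and 4 were the highest. The log2 fold change was 1.90 ± 0.28 (SE; 3.72-fold; edgeR adjusted p = 0.0188). The counts behind it were 763 over the control group and 2701 over the periodontitis group.

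Of 15 tested genes of fatty acid synthesis 1 was called, 2 were higher and 0 lower at an unadjusted p under 0.05, and the median log2 fold change was -0.02, and -0.27 without periodontitis library 5. Fasn, the fatty acid synthase, was at 22.9, 19.4, 27.4, 16.3 and 16.8 CPM in controls and at 21.8, 17.1, 12.5, 16.1 and 34.9 CPM in periodontitis libraries (0.00 ± 0.25, and -0.28 without library 5). The groups overlapped fully, with library 5 the highest and library 3, where Scd1 was highest, the lowest. The other gene at an unadjusted p under 0.05 was Thrsp, a nuclear protein of lipogenic tissues. It was at 1.36, 0.588, 1.12, 0.584 and 0.805 CPM in controls and at 4.13, 3.02, 2.01, 3.24 and 1.33 CPM in periodontitis libraries, of which library 5 alone was within the control range (1.60 ± 0.34; edgeR adjusted p = 0.198, and 0.026 without that library). Acss2 and Elovl5, for acetyl-CoA and for chain elongation, gave -0.31 ± 0.18 and -0.23 ± 0.17.

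Insig1 (chr5:28071363-28078662), which holds the sterol sensor of cholesterol synthesis in the endoplasmic reticulum, was lower in every periodontitis library. Its levels were 204, 244, 231, 213 and 194 CPM in controls and 146, 164, 116, 110 and 77.3 CPM in periodontitis libraries. The groups did not overlap, and library 5 was the lowest (-0.82 ± 0.18; edgeR adjusted p = 0.223; DESeq2 adjusted p = 0.0161). Among 28 tested genes of cholesterol synthesis and uptake 0 were called, 0 were higher and 2 lower at an unadjusted p under 0.05, Insig1 among them, and the median was -0.14, with 23 of 28 negative. For all genes the share of negative values was 45.1%.

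Transcripts of fat cells were higher in periodontitis libraries 1 to 4 and not in library 5. Cfd (adipsin) was at 1.09, 0.588, 0.492, 0.389 and 0.845 CPM in controls and at 14.8, 10.4, 9.49, 39.4 and 0.174 CPM in periodontitis libraries. Adipoq, the hormone adiponectin, had 4, 0, 3, 1 and 3 counts in controls and 51, 29, 44, 97 and 0 in periodontitis libraries. Retn, the hormone resistin, had 3, 2, 0, 1 and 2 counts in controls and 26, 32, 32, 58 and 1 in periodontitis libraries. For all 3 genes library 4 was the highest and library 5 lay within or below the control range. The log2 fold changes were 4.42 ± 0.81 for Cfd, 4.66 ± 0.97 for Adipoq and 4.48 ± 0.82 for Retn (edgeR adjusted p = 0.104, 0.198 and 0.104). Without library 5 the adjusted p of edgeR were 0.000805, 0.00592 and 0.00105.

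Car3, a carbonic anhydrase abundant in fat and muscle, was at 1.63, 0.834, 0.787, 0.778 and 2.13 CPM in controls and at 8.77, 5.47, 5.89, 25.5 and 1.5 CPM in periodontitis libraries (2.92 ± 0.58; edgeR adjusted p = 0.175, and 0.00793 without library 5). Hp, the haemoglobin-binding protein that liver and fat make, had 5, 3, 5, 0 and 6 counts in controls and 56, 16, 14, 70 and 7 in periodontitis libraries (3.42 ± 0.74; edgeR adjusted p = 0.223, and 0.0243 without library 5; DESeq2 adjusted p = 0.00197). Both genes kept the pattern of libraries 1 to 4 above the controls. Of 19 tested genes of the adipocyte list 0 were called, 8 were higher and 0 lower at an unadjusted p under 0.05, DESeq2 called 4 and edgeR called 4 without library 5. The median of the list was 0.33, and several of its other members, such as Pparg and Pnpla2, are also made outside fat. Lpl, which frees fatty acids from circulating lipoproteins and was singled out after its values were seen, was the 1 member whose groups did not overlap, at 4.91 to 6.63 CPM in controls and 6.92, 8.85, 14, 34.5 and 8.82 CPM in periodontitis libraries. The mean log2 CPM of the list was 2.23 to 2.82 in control libraries, 3.35 to 4.14 in periodontitis libraries 1 to 4 and 2.24 in library 5. Scd1 was above all controls in library 5 (18.9 CPM), where Adipoq had 0 counts, and so was Klf15 (17.1 CPM). For 7 tested genes of mesothelium, the covering of the gut's outer surface, the median was 0.47, and 0.75 without library 5, with 0 at an unadjusted p under 0.05. How much fat was taken with each sample is not in the labels, and its part in these values was not tested.

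B cell and follicle genes were lower in most periodontitis libraries, with 1 control library as low. Of 25 tested genes 25 had a negative log2 fold change, 0 were called, 21 were lower at an unadjusted p under 0.05, and the median was -2.15. DESeq2 called 4, all lower: Fcmr, Pax5, Cd22 and Ighm. In no member did the groups separate. The mean log2 CPM of the list was 1.34, 0.93, 2.34, 0.87 and -1.28 in control libraries 1 to 5 and -1.11, -1.60, -1.54, 0.55 and -0.61 in periodontitis libraries 1 to 5. Control library 5 was thus as low as periodontitis libraries 1 to 3, control library 3 was the highest, and periodontitis library 4 was near controls 2 and 4.

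Fcmr, the receptor for IgM, had 33, 24, 123, 23 and 1 counts in controls and 0, 0, 1, 7 and 2 in periodontitis libraries (-4.04 ± 0.88; edgeR adjusted p = 0.223). Pax5, the factor that fixes B cell identity, had 29, 25, 144, 27 and 1 counts in controls and 0, 0, 0, 9 and 1 in periodontitis libraries (-4.12 ± 0.97; edgeR adjusted p = 0.311). Ighm, the heavy chain of IgM, was at 19.2, 13.3, 39.1, 13.9 and 7.45 CPM in controls and at 6.76, 4.09, 4.26, 7.85 and 12.1 CPM in periodontitis libraries (-1.40 ± 0.35; edgeR adjusted p = 0.391). The 3 genes shared the low control library 5 and the high control library 3. Ccl19, a chemokine of lymphoid tissue, had 21 counts over the control group and 1 over the periodontitis group, a ratio too thinly counted for a firm size. Without periodontitis library 4, the genes that edgeR called included Pax5 and Ms4a1, both B cell genes and lower, in addition to Scd1 and Klf15. That library had the highest mean of the list in its group (0.55), so leaving it out widens the difference. Other leave-outs did not give the same: Pax5 did not pass without periodontitis library 5 (edgeR adjusted p = 0.23) or without any control library. With 1 library left out, the log2 fold change of Pax5 ran from -7.01 to -3.14. The edgeR adjusted p of Fcmr then ran from 0.0559 to 0.865. At 2 weeks the list's median dam effect was -0.12.

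Outside the follicle list, Gpr183, a receptor for oxysterols that steers B cells in follicles, had 34, 14, 44, 23 and 17 counts in controls and 5, 3, 3, 7 and 15 in periodontitis libraries. In CPM the groups did not overlap, at 0.684 to 1.44 CPM and 0.104 to 0.436 CPM (-1.87 ± 0.36; edgeR adjusted p = 0.142, and 0.0189 without library 5; DESeq2 adjusted p = 0.000712). Icos, a costimulator of helper T cells, had 56 counts over the control group and 12 over the periodontitis group, again with no overlap in CPM (-2.06 ± 0.42; edgeR adjusted p = 0.194). Clu, an abundant protein of follicular dendritic and regenerating epithelial cells, was at 14.8, 11.2, 37.9, 10.7 and 2.7 CPM in controls and 1.79 to 6.17 CPM in periodontitis libraries (-2.13 ± 0.49; edgeR adjusted p = 0.288). For Clu control library 5 again lay among the periodontitis libraries.

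Immunoglobulin and plasma cell genes had lower values with wide spread. Of 18 tested genes 0 were called, 5 were lower at an unadjusted p under 0.05, DESeq2 called 2 (Iglc1 and Iglc2), and the median was -0.91, and -1.29 without periodontitis library 5. Iglc1, a constant segment of the lambda light chain, was at 176, 32.5, 104, 40.9 and 22.8 CPM in controls and at 23.4, 28.4, 11.2, 18.9 and 20.3 CPM in periodontitis libraries (-1.88 ± 0.42; edgeR adjusted p = 0.257). Iglc2 was at 12.7 to 209 CPM in controls and 7.26 to 39 CPM in periodontitis libraries (-2.14 ± 0.51; edgeR adjusted p = 0.319). Igha, the heavy chain of IgA, was at 696, 244, 5360, 1450 and 298 CPM in controls and at 1340, 454, 146, 95.3 and 1900 CPM in periodontitis libraries, so its difference of -1.03 ± 0.85 turned on control library 3 and was 0.23 without it. Jchain, which links IgA and IgM chains, and Pigr, which carries them across the epithelium, gave -0.29 ± 0.56 and 0.00 ± 0.37. Of 37 tested kappa variable segments 19 were negative, with a median of -0.03, and 3 were higher and 4 lower at an unadjusted p under 0.05. Of 19 heavy chain variable segments 15 were negative, with a median of -0.79, and 6 were lower and 0 higher at that p. The 2 tested lambda variable segments were lower at that p, with a median of -2.79. Of all genes tested 3.33% passed that p. Constant and variable segments have near-identical copies, so counts of single segments are uncertain.

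Genes of MHC class II, which present antigen to helper T cells, were negative in 13 of 13 tested, with 0 called, 4 lower at an unadjusted p under 0.05 and a median of -0.56, and of -0.76 without periodontitis library 5. H2-Eb2 was at 1.89, 1.13, 3.54, 1.28 and 0.241 CPM in controls and 0.139 to 0.748 CPM in periodontitis libraries (-2.54 ± 0.57; edgeR adjusted p = 0.257; DESeq2 adjusted p = 0.00625). H2-DMb2 and H2-Ob, which B cells express, gave -1.56 ± 0.46 and -1.51 ± 0.47, and Ciita, the factor that drives the class, -0.69 ± 0.30. In all 4 genes the lowest control library was library 5. H2-Ab1, also made by enterocytes and macrophages, gave -0.07 ± 0.30. Of 25 macrophage and dendritic cell genes 3 were lower and 1 higher at an unadjusted p under 0.05, with 0 called and a median of -0.44, which was -0.88 without periodontitis library 5. Lyz2, a lysozyme of macrophages, was at 30.7 to 94.4 CPM in controls and 15.9 to 55.8 CPM in periodontitis libraries (-1.04 ± 0.35), Cd209a, a lectin of dendritic cells, gave -0.89 ± 0.38 and Aif1 -0.47 ± 0.22, while Adgre1, the F4/80 antigen, gave -0.20 ± 0.24. Marco, a scavenger receptor, had 0 counts in the control group and 11 in 4 of the 5 periodontitis libraries, at least 3.88-fold higher when the control group is set to a floor of 3 counts in all. Of 27 T cell and intraepithelial lymphocyte genes 2 were lower, Trac among them, and 0 higher at an unadjusted p under 0.05, with a median of -0.11, and of -0.03 without that library. Trac, the constant region of the T cell receptor alpha chain, gave -0.84 ± 0.30, whereas Cd3e, Cd8a and Cd4 gave 0.08 ± 0.37, -0.11 ± 0.30 and -0.71 ± 0.38.

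**Figure D3:**
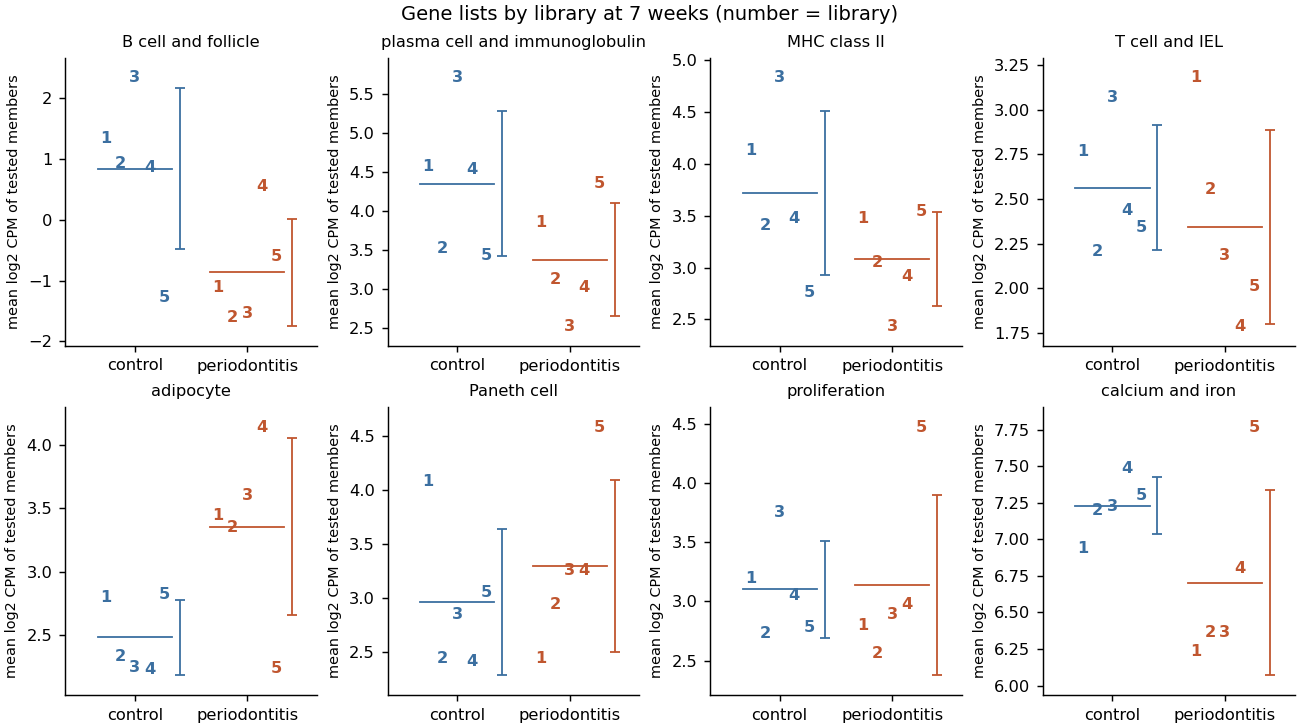
Mean log2 CPM over the tested members of 8 gene lists in each library of 7 weeks. Numbers are libraries 1 to 5 of each group, lines are group means and error bars are 1 SD (n = 5). Control library 5 lies with the periodontitis libraries for B cell genes, and periodontitis library 5 lies away from libraries 1 to 4 for adipocyte, Paneth cell, proliferation, and calcium and iron genes.

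Duox2, an oxidase that releases hydrogen peroxide at the epithelial surface, and its maturation factor Duoxa2 were higher in periodontitis libraries 1 to 4. The genes lie head to head on chromosome 2, Duox2 at chr2:122279247-122298449 on the minus strand and Duoxa2 at chr2:122298900-122302885 on the plus strand. Duox2 was at 3.05, 0.834, 1.84, 0.778 and 1.25 CPM in controls and at 9.87, 37.8, 3.57, 39 and 0.463 CPM in periodontitis libraries. Duoxa2 was at 1.92, 0.294, 0.82, 0.662 and 0.402 CPM in controls and at 2.48, 20.3, 2.46, 17.8 and 0.318 CPM in periodontitis libraries. For both, libraries 2 and 4 were the highest and library 5 was among the lowest of all 10. The log2 fold changes were 3.52 ± 0.77 and 3.36 ± 0.78 (edgeR adjusted p = 0.223 and 0.288). Without library 5 the adjusted p of edgeR were 0.00793 and 0.0189, and DESeq2 called both with all libraries.

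Of 21 tested antimicrobial genes 0 were called, 3 were higher (Duox2, Duoxa2 and Reg3b) and 1 lower at an unadjusted p under 0.05, with a median of 0.38. Reg3b, a lectin with bactericidal action, was at 358, 106, 182, 212 and 109 CPM in controls and at 1700, 547, 479, 273 and 55.4 CPM in periodontitis libraries, with libraries 1 to 3 above all controls and library 5 below them (1.66 ± 0.64; edgeR adjusted p = 1). Reg3g, its close relative, was at 82.6 to 360 CPM in controls and at 797, 177, 124, 46.7 and 27.1 CPM in periodontitis libraries, so that library 1 was the one above the controls (0.60 ± 0.71). Nos2, which makes nitric oxide, and Reg3a gave 1.03 ± 0.71 and 0.19 ± 0.55, and Lcn2, which binds bacterial iron carriers, 0.40 ± 0.48. The lower gene was Pglyrp2, an enzyme that cleaves peptidoglycan, at 0.845 to 4.25 CPM in controls and 0.589 to 1.65 CPM in periodontitis libraries (-1.15 ± 0.43). Goblet cell genes, 19 tested with 0 at an unadjusted p under 0.05, had a median of -0.05, and the mucin Muc2 gave 0.02 ± 0.27.

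Paneth cell genes depended on periodontitis library 5. Of 21 tested genes 0 were called, 1 was higher at an unadjusted p under 0.05 and 20 were positive, with a median of 0.38, but without library 5 the median was -0.51. Lyz1, the Paneth cell lysozyme, was at 598, 131, 181, 102 and 188 CPM in controls and at 98.2, 102, 146, 125 and 924 CPM in periodontitis libraries (0.22 ± 0.63, and -1.03 without library 5). Control library 1 and periodontitis library 5 stood far above the other 8. Pla2g2a, a secreted phospholipase, and Defa29, an alpha-defensin, were at 4.17 and 22.8 CPM in that library against at most 0.901 and 4.12 CPM in periodontitis libraries 1 to 4; defensin genes are near-identical copies and their counts uncertain. The same held for 32 proliferation genes, with a median of 0.22 and of -0.45 without library 5, and for 30 fibroblast genes, with 0.25 and -0.16. For these 3 lists the direction of the median was therefore set by 1 library.

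Of 23 tested cytokine and chemokine genes 1 was higher (Csf2, a growth factor of myeloid cells, 0.92 ± 0.39) and 1 lower (Cxcl5, which attracts neutrophils, -1.16 ± 0.42) at an unadjusted p under 0.05, with 0 called and a median of -0.22, and of -0.04 without periodontitis library 5. Il1b, Il18 and Il33 gave -0.59 ± 0.37, 0.12 ± 0.32 and 0.25 ± 0.28, and Tnf, at 30 and 23 counts over the groups, -0.24 ± 0.54. Of 37 interferon-stimulated genes 0 passed an unadjusted p of 0.05 and the median was 0.08, and 0.28 without periodontitis library 5. Ifit1, an antiviral protein of that list, was at 73.9 to 134 CPM in controls and 156, 163, 128, 169 and 32 CPM in periodontitis libraries (0.23 ± 0.35, and 0.49 without library 5), with library 5 below all others. Of 25 genes of the interferon-gamma response 3 were lower at an unadjusted p under 0.05, Ciita and the guanylate-binding proteins Gbp2b (-1.13 ± 0.36) and Gbp3 (-0.66 ± 0.26), whose close copies make single counts uncertain. The median of that list was -0.21, and -0.03 without periodontitis library 5. Gbp2 gave -0.85 ± 0.42.

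**Figure D4:**
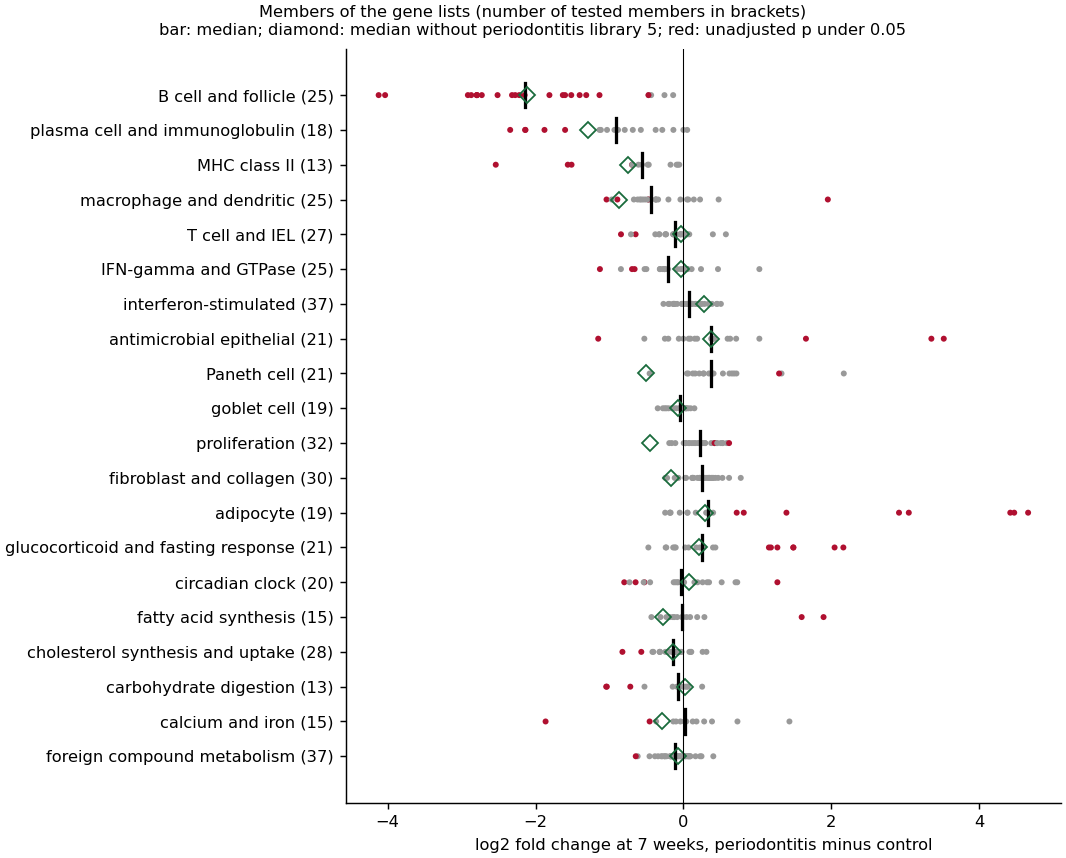
Log2 fold change at 7 weeks, periodontitis minus control, of each tested member of 20 gene lists. Genes with at most 3 counts over a group are drawn at their bound. Black bars are medians, open diamonds medians without periodontitis library 5, and red points have an unadjusted p under 0.05 in edgeR. The B cell and follicle members lie furthest to the left, with a median of -2.15. The bar and diamond fall on opposite sides of 0 for Paneth cell, proliferation and fibroblast genes. They also do so for circadian clock, carbohydrate digestion, and calcium and iron genes, whose bars lie near 0 (-0.03, -0.08 and 0.02).

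Of 13 tested genes of carbohydrate digestion 0 were called, 0 were higher and 3 lower at an unadjusted p under 0.05, and 9 were negative. The median was -0.08, and 0.02 without periodontitis library 5, so the list as a whole showed no direction that held without that library. Slc2a5 (chr4:150119283-150144169), the fructose transporter, was at 1230, 1260, 1130, 1060 and 1100 CPM in controls and at 937, 852, 395, 272 and 369 CPM in periodontitis libraries. No periodontitis library reached the controls, and libraries 3 to 5 were lowest (-1.04 ± 0.33; edgeR adjusted p = 0.957). Fbp1, fructose bisphosphatase, did not overlap either, at 251, 313, 322, 317 and 315 CPM in controls and 166, 186, 190, 131 and 249 CPM in periodontitis libraries (-0.72 ± 0.33; edgeR adjusted p = 1). G6pc, glucose-6-phosphatase, was at 341, 612, 376, 356 and 231 CPM in controls and 302, 233, 166, 99.3 and 128 CPM in periodontitis libraries (-1.04 ± 0.30; edgeR adjusted p = 0.736). These were the 3 lower genes of the list, and none of them passed. The disaccharidases Sis and Lct gave -0.08 ± 0.69 and -0.06 ± 0.24. Sis was at 2710 to 3870 CPM in controls and 2370 to 3500 CPM in periodontitis libraries. Its SE also takes in the spread at 2 weeks, where periodontitis pups held 9 to 462 CPM. Cyp3a11 and Cyp1a1, which oxidise foreign compounds, gave -0.46 ± 0.40 and -0.62 ± 0.59; of 37 genes of that list 1, Ahrr, the repressor of the aryl hydrocarbon receptor, was lower at an unadjusted p under 0.05 (-0.64 ± 0.28), with 0 called and a median of -0.11.

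Of 15 tested genes of calcium and iron handling 0 were called, 0 were higher and 2 lower at an unadjusted p under 0.05, and 9 were positive and 6 negative. The median was 0.02, and -0.29 without periodontitis library 5. The 4 members described here were in part singled out for their values and do not stand for the list. Cybrd1 (chr2:71117923-71142926), the duodenal ferric reductase, was at 65.4, 88.7, 93.7, 99.2 and 91.2 CPM in controls and at 20.3, 17.4, 7.28, 16.6 and 58.4 CPM in periodontitis libraries. Its groups did not overlap, and library 5 was the one near the controls (-1.86 ± 0.56; edgeR adjusted p = 0.791). Trpv6, the calcium channel of the brush border, was at 1.86, 3.38, 10.4, 9.89 and 5.15 CPM in controls and at 0.157, 0.256, 0.208, 0.872 and 80.7 CPM in periodontitis libraries. Slc40a1, the iron exporter, and S100g, which binds calcium, were singled out after their values were seen. Slc40a1 was at 100 to 194 CPM in controls and at 20.1, 26.2, 21.5, 48 and 696 CPM in periodontitis libraries. S100g was at 130 to 386 CPM in controls and at 22.7, 45.7, 66.1, 207 and 1670 CPM in periodontitis libraries. In Trpv6, Slc40a1 and S100g library 5 exceeded every control by far, libraries 1 to 4 lay below every control for Trpv6 and Slc40a1, and library 4 lay within the control range for S100g. The log2 fold change of Trpv6 was 1.43 with library 5 and -4.17 without it (edgeR adjusted p = 1 and 0.194). Without library 5, Slc40a1 was called lower (log2 fold change -2.31; edgeR adjusted p = 0.00105) and Cybrd1 was not (edgeR adjusted p = 0.115). Pdx1, a transcription factor of the duodenum, was at 42.4 to 67.5 CPM in controls and at 39.5, 34.7, 20.6, 22.1 and 62 CPM in periodontitis libraries (-0.58 ± 0.29, and -0.87 without library 5). Osr2, the 1 member of the distal list at an unadjusted p under 0.05, was at 0.623 to 3.3 CPM in controls and at 4.87, 8.08, 16.6, 7.85 and 0.174 CPM in periodontitis libraries, the reverse order (2.02 ± 0.59; edgeR adjusted p = 0.791, and 0.00719 without library 5). Signs were mixed in both lists. Of 15 tested proximal genes 7 were positive and 8 negative, with a median of -0.06, and of -0.07 without library 5. Their mean log2 CPM was 7.74 to 8.28 in controls, 7.14 to 7.50 in periodontitis libraries 1 to 4 and 8.33 in library 5. Libraries 1 to 4 thus lay below every control by that mean. The lowest and highest log2 fold changes of the proximal list, -1.86 and 1.43, were those of Cybrd1 and Trpv6. Its mean therefore takes in genes already described. The summed CPM of the list overlapped, at 10400 to 13100 in controls and 10700 to 13000 in periodontitis libraries. Of 15 distal genes 8 were positive and 6 negative, with a median of 0.01, and of 0.18 without library 5. The distal list included Apoa4, used above as an enterocyte marker, and that 0.18 was the value of Apoa4 itself. The segment each sample came from is not in the labels and its part in these or the other differences was not tested.

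The stem cell marker Lgr5 gave -0.04 ± 0.38 and Sox9, a factor of the crypt base, 0.61 ± 0.29, the latter at an unadjusted p under 0.05. Among the 20 genes of smallest p, Fgfbp3, which carries fibroblast growth factors, did not overlap between groups, at 0.49 to 1.28 CPM in controls and 1.37 to 2.25 CPM in periodontitis libraries (1.13 ± 0.24; edgeR adjusted p = 0.198). Nudt11, a phosphatase of inositol pyrophosphates on chromosome X, did not overlap either, with 47 counts over the control group and 13 over the periodontitis group (-1.72 ± 0.39; edgeR adjusted p = 0.262). Gm45774 had 7 counts over the control group and 0, 1, 65, 24 and 36 in periodontitis libraries, the libraries in which Mt2 was high. It is annotated as antisense at chr8:94170748-94173412 and overlaps Mt2 at chr8:94172664-94173568 on the plus strand, and as the strand setting of the counting is not stated, their reads cannot be told apart.

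The difference between dams was itself compared between ages, with no library shared by the 2 comparisons. Control library 5 of 2 weeks stood apart: 29.41% of its counts were mitochondrial, against at most 6.001% in the other 9 libraries of 2 weeks, its total was 14.9 M, and its top gene was mt-Co1. It was therefore left out in an alternative. The periodontitis pups of 2 weeks were not uniform either. In their libraries 1 and 2 Fabp6 was at 365 and 328 CPM, and in libraries 3 to 5 at 17.5, 2.92 and 8.07 CPM. For Sis the values were 277 and 462 CPM against 28, 9 and 19.2 CPM. The part of this split in the comparison between ages was not tested. Of 17464 genes 4 had a dam effect at 7 weeks that differed from that at 2 weeks in edgeR (0.0229%): Klf15, Cfd, Scd1 and Retn. All 4 had negative log2 fold changes at 2 weeks, none of which passed there, and positive ones at 7 weeks. For Klf15 the 2-week levels were 3.23, 3.27, 2.36, 3.5 and 4.67 CPM in controls and 1.44, 1.28, 1.36, 2.32 and 1.39 CPM in periodontitis pups, a log2 fold change of -1.11 ± 0.31 (edgeR adjusted p = 0.109). The groups did not overlap at either age, and their order was opposite (difference 3.16 ± 0.44; edgeR adjusted p = 0.01). Scd1 was at 4.59 to 7.15 CPM in controls and 3.37 to 4.37 CPM in periodontitis pups at 2 weeks, again without overlap and in the opposite order (difference 2.41 ± 0.39; edgeR adjusted p = 0.0238). Cfd and Retn differed between ages by 7.47 ± 1.12 and 7.05 ± 1.15 (edgeR adjusted p = 0.0156 and 0.0238), from -3.05 ± 0.79 and -2.57 ± 0.80 at 2 weeks. Adipoq, the fifth by p, gave 6.72 ± 1.29 (edgeR adjusted p = 0.125). Leaving out a control library of 7 weeks left 1 or 2 genes called, and leaving out periodontitis library 5 gave 26. Without control library 5 of 2 weeks 9 genes were called, and the differences were 3.03 for Klf15, 7.69 for Cfd, 2.46 for Scd1 and 7.13 for Retn (edgeR adjusted p = 0.013, 0.013, 0.0307 and 0.0311). At 2 weeks Cfd was at 0.402 CPM in that library and at 1.52 to 3.98 CPM in the other controls, against 0.142 to 0.447 CPM in periodontitis pups.

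**Figure D5:**
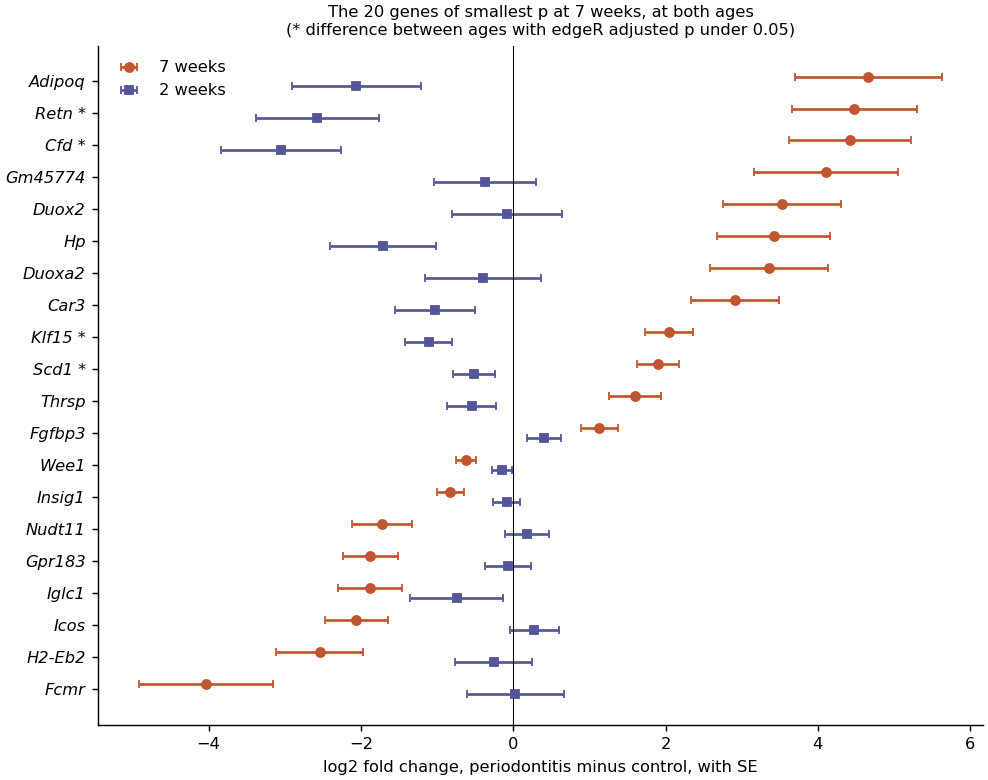
Log2 fold change, periodontitis minus control, at 7 weeks (circles) and at 2 weeks (squares) of the 20 genes of smallest p at 7 weeks, with bars of 1 SE. Stars mark the 4 genes whose difference between ages passed an adjusted p of 0.05 in edgeR: Retn, Cfd, Klf15 and Scd1, each above 0 at 7 weeks and below 0 at 2 weeks.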

How the data were processed

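PolyA RNA of small intestine was measured in 20 libraries, grouped by the labels' title, age and treatment. The authors deposited expected counts from RSEM for each gene; all were whole, and rounding changed 0 values. Per the submitters' processing notes they used cutadapt 4.8, FastQC 0.11.8, STAR 2.7.8a and RSEM 1.3.3, with GRCh38 and GRCm38 listed as builds. Annotation release and strand setting are not given in the sources used here. Of the 55491 lines 4 name no mouse gene and hold 0 counts.

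Counts were fitted in R 4.3.3 with edgeR 4.0.16 (filterByExpr, TMM, robust quasi-likelihood, 1 mean per group over all 20 libraries, 16 residual degrees of freedom). The filter left 17464 genes and took at most 0.0838% of a library's counts. Two-sided p-values got a Benjamini-Hochberg adjustment across the whole set of genes, with a threshold of 0.05. SE is the size of the log2 fold change over the square root of F. Log2 CPM use a prior count of 2. Bounds use a floor of 3 counts over a group and cover counting error only.

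Named are genes past the threshold, the 20 smallest p, up to 4 smallest p per described list, a set of intestinal immune and digestive genes, and the 5 smallest p of the difference between ages. Other members appear in counts and ranges, or were singled out for their values: Lpl, Slc40a1, S100g, Fkbp5, Zbtb16, Hif3a, Cd22, Ms4a1, Tsc22d3, Sgk1, Dusp1, Pdk4 and Angptl4. A list is described where a member was called, its median exceeded 0.4 in size, or it holds a gene of that set; cholesterol, proliferation, fibroblast, and calcium and iron genes were added after their values were seen. Some members that the rule names are not reported here. Members and lists were chosen with earlier results of these data known. Coordinates are from GENCODE M21 (GRCm38), which matched 17448 of the 17464 genes. The alternatives tried were limma 3.58.1 voom with sample quality weights, DESeq2 1.42.0, edgeR with the size factors of DESeq2, 2 other filters, no robust estimation, the 7-week libraries alone, the replicate number as a block and each 7-week library left out. Added after the data were seen was the removal of control library 5 of 2 weeks, alone or with periodontitis library 5 of 7 weeks. The procedure was tested on simulated data.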

Additional observations from a re-analysis of the deposited data

Results flagged for a closer look

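In 7 of 98 sets of 5 libraries examined, 1 library lay further from its group than the 95% limit of Dixon's test (ratio 0.71) allows; about 1 set in 20 does so by chance. Periodontitis library 5 gave 5 of the 7. In it the mean log2 CPM was 4.8954 for distal intestine genes (5.73 to 6.0599 in the other 4), 9.4514 for chylomicron assembly (10.2613 to 10.4898), 3.6929 for interferon-stimulated genes (4.9257 to 5.4221) and 5.0667 for arginine and polyamine genes (4.1637 to 4.4055). Cfd, the fat cell gene adipsin, was at -2.119 on the log2 CPM scale there and at 3.2554 to 5.3016 in the other 4. In control library 4, Scd1 was at 2.13 against 2.5589 to 2.7259 in the other controls, and Hp, with 0 counts, at -4.1417 against -2.2949 to -1.7459.

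The dam effect at 7 weeks differed from that at 2 weeks, by a test of the difference itself in edgeR, for Retn by 7.0467, Klf15 by 3.157, Scd1 by 2.4124 and Cfd by 7.471 on the log2 scale. Each was positive at 7 weeks and negative at 2 weeks.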

How the results depend on the processing

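The 2 calls at 7 weeks became 25 with DESeq2, 8 with voom weights, 0 with the 7-week libraries alone and 0 with the replicate block, with 383 and 411 genes at an unadjusted p under 0.05 in edgeR in the last 2. They ranged from 0 to 15 when 1 library was left out, with 0 for each control library, and were 32 when control library 5 of 2 weeks and periodontitis library 5 were left out together. The 4 calls of the difference between ages became 65 with DESeq2, 1182 with voom weights, 0 with the replicate block, 1 to 26 with 1 library left out, 9 without control library 5 of 2 weeks, and 159 without both libraries. Scd1 and Klf15 kept a positive sign in all 20 alternatives, at 1.5858 to 2.0631 and 1.6737 to 2.2099 (edgeR, DESeq2 or limma adjusted p up to 0.713). As the groups did not overlap for either gene, these alternatives could hardly have turned the sign. Same-number correlations of deviations from the group means were 0.0825, 0.2814, -0.397, 0.2878 and -0.1552. With both signs among 5 values, they cannot tell whether equal replicate numbers mark pairs.

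Values that changed sign were all uncalled. With 1 library left out they ran from -0.0061 to 1.4999 for Nos2, -1.662 to 0.2289 for Igha, -0.7269 to 1.1791 for Reg3g, -0.589 to 0.0692 for Jchain, -0.4234 to 0.0649 for Cd8a, -0.0097 to 0.2266 for Il18, -1.026 to 0.8882 for Lyz1, -0.2063 to 0.0535 for Lct and -0.3246 to 0.2763 for H2-Ab1. The ranges were -0.3197 to 0.268 for Cd3e, -0.1696 to 0.1756 for Apoa4, -0.1906 to 0.1601 for Lgr5, -0.1452 to 0.0187 for Sis, -0.0978 to 0.1449 for Muc2, -0.2824 to 0.1296 for Fasn, -0.0463 to 0.0738 for Pigr, -0.0508 to 0.717 for Lcn2 and -4.1735 to 1.7533 for Trpv6. Voom weights gave 0.0189 for Cd8a, -0.3985 for Lyz1, 0.0326 for Lct, 0.091 for H2-Ab1, 0.0608 for Apoa4, -0.0254 for Pigr, -0.7079 for Lcn2 and -3.8908 for Trpv6. The replicate block gave -0.1501 for Reg3g, -0.1364 for Lyz1, -0.0569 for Cd3e and -2.7255 for Trpv6. Without both libraries the values were -1.0256 for Lyz1, 0.0539 for Lct, 0.1761 for Apoa4, 0.0191 for Sis, -0.0029 for Pigr and -4.2089 for Trpv6. Fasn was 0.0009 with the CPM filter and 0.0011 with the 7-week libraries alone, and Pigr was -0.0154 with no filter and -0.0014 without control library 5 of 2 weeks. The cause of these changes was not tested. Of the list medians 11 moved by more than the spread between libraries, 8 of them when periodontitis library 5 was left out, alone or with another library; the Paneth cell median was then -0.511.

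Cfd, at 21.4-fold, did not pass in edgeR with all libraries (adjusted p = 0.104) and passed without periodontitis library 5 (adjusted p = 0.000805). It was at 0.174 CPM in that library and at 9.49 to 39.4 CPM in periodontitis libraries 1 to 4. Genes under about 0.1 CPM rest on a few counts.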
